A study of Zanthoxylum armatum with 24 samples.

Results

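The change in transcript levels from undifferentiated to differentiating floral primordia was compared between male and female buds of Zanthoxylum armatum DC., a prickly ash that bears male and female flowers mostly, though not always, on separate trees. The comparison used all 12 libraries of 4 groups, 3 libraries a group, of the 24 libraries deposited: undifferentiated primordia of males (M1) and females (F1), here stage 1, and primordia in differentiation of males (M3) and females (F3), here stage 3. All trees belonged to the same species and grew untreated at the same site, the tissue was labelled flower, and each library was made from buds taken from several trees of the same sex, so that a spread within a group is a spread between pools and not between trees. No label says whether pools of a group came from different trees, and p-values therefore measure the spread between these pools only. Stage 3 was collected later in the season than stage 1 in both sexes, so that differentiation and season cannot be told apart within a sex.

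The quantity of interest was the interaction (M3 - M1) - (F3 - F1), the change in males less the change in females. A positive value means that a gene rose more, or fell less, in males; a negative value means the reverse. Values were FPKM (fragments per kilobase of transcript, scaled to the mapped fragments of the library) on the scale log2(FPKM + 1), which understates the change of genes with low levels. A gene entered the limma fit when 3 or more of the 23 libraries used held 1 FPKM or more, which left 38734 of 60592 listed genes. It was called when its absolute log2 value reached 1 and its p, adjusted by Benjamini-Hochberg over all of them, did not exceed 0.05. The interaction was measured less precisely than the change within a sex. Its median standard error over genes was 0.202 on the log2 scale, against 0.143 for the change in males and 0.143 for the change in females.

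Floral organ identity in plants is set by combinations of MADS-box transcription factors: A class genes act in the outer whorls, B class genes (AP3 and PI) with C class AG in stamens, C class AG alone in carpels, D class genes in ovules, and E class SEP proteins bind to all of these. Cytokinins are hormones that promote cell division in the floral meristem. They are broken down by cytokinin oxidases (CKX), bound by receptor histidine kinases (AHK), and their signal is passed through phosphotransfer proteins to response regulators (ARR). Genes are named here after the closest Arabidopsis protein in the study's supplementary tables, with the prefix Za, and roles are those known from Arabidopsis.

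The 12 libraries were of like depth and differed most in the F3 group. Libraries of the same group shared 0.955 to 0.969 of their variance in log2(FPKM + 1) over genes (r2), and the relative depth read from low values lay between 0.853 and 1.04 of M1 replicate 1. The FPKM summed to between 1087286 and 1109118 in the F3 libraries and to between 959266 and 1024332 in the other 9, and the 10 most abundant genes took 7.93% to 8.60% of that sum in F3 against 4.12% to 6.12% in the others. Per the study's own quality tables, the F3 libraries also had the lowest RNA integrity and the lowest share of mapped reads of the 4 groups. The part of these shifts in the results, the class of genes lower in females only included, was not tested. The median interaction over all genes was -0.0095, against 0.0050 with quantile normalization and -0.0075 with median-ratio scaling. Both scalings align whole libraries, so that a small median does not show that single calls are free of these shifts. Positive and negative calls numbered 622 and 531 in the main fit, 600 and 584 with quantile normalization, and 624 and 527 with median-ratio scaling. The labels were checked against organ identity genes. B class ZaPI (Zardc17043) was at 20.9, 33.2 and 28.4 FPKM in the M3 libraries and at 1.78, 1.97 and 3.05 FPKM in F3. The E class genes ZaSEP1 (Zardc32032) and ZaSEP2 (Zardc10299, Zardc28804) were called higher at stage 3 in both sexes, while D class ZaSTK, the ovule identity gene, was at or near 0 in all 4 groups (Zardc33529 was listed at 0 in all 12 libraries). D class ZaSHP1 (Zardc10218), a gene of carpels and ovules, was not higher in females at stage 3, with 2.26 FPKM in M3 and 1.55 in F3. C class ZaAG (Zardc02402) was at 13.98 FPKM in M3 and 3.86 in F3, and E class ZaSEP3 (Zardc28170) was called in neither sex. The study had picked ZaPI from sex differences in these same samples, so that it is no independent check.

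The interaction was called for 1153 of 38734 genes (2.98%), 622 positive (1.61%) and 531 negative (1.37%), and 11498 genes had an unadjusted p below 0.05. The change within a sex was called for 2409 genes in males (6.22%; 2.77% higher and 3.45% lower at stage 3) and for 2526 genes in females (6.52%; 3.04% higher and 3.48% lower). Of the 3864 genes called in at least 1 sex, 1060 (27.4%) were called in both in the same direction. Changes had the same sign in both sexes in 3510 of the 3864 (90.8%), against 68.5% of the genes called in neither sex, and across all genes the male and the female change had a Pearson correlation of 0.646 (38734 genes, which are not independent; the 2 changes share no library). Most genes called in 1 sex alone had no called interaction. Of 1338 genes called in males and not in females, 307 (22.9%) had a called interaction, and of 1455 genes called in females and not in males, 388 (26.7%) did, against 2.98% of all genes tested. An interaction that was not called does not show equal change in the sexes, since it was measured less precisely and had a fold threshold of its own. For 1060 genes called in both sexes in the same direction, the interaction was called in 76 (7.17%). The fold threshold decides how many genes are counted: 6422 genes passed the adjusted p alone, and 44 genes (19 positive, 25 negative) passed a limma test against an absolute log2 value of 1. Leaving out F3 replicate 3 raised the count to 1460 (840 positive, 620 negative), and leaving out any other library gave between 1014 and 1275.

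**Figure D1:**
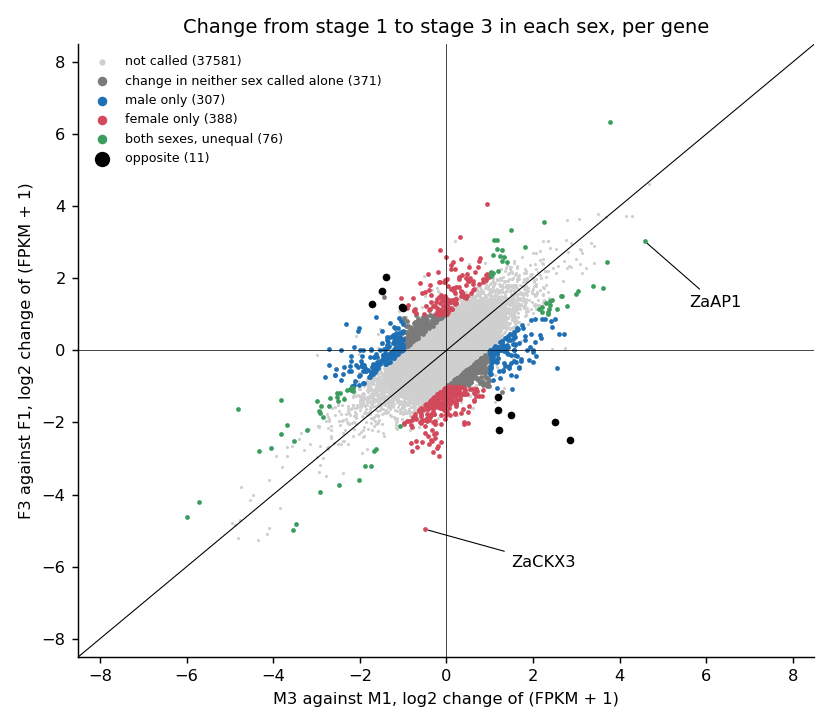
Change from stage 1 to stage 3 of each tested gene on the log2(FPKM + 1) scale, males on the x axis and females on the y axis; each point is a gene, coloured by its class, and the diagonal marks equal change. Most of the 38734 genes lie along the diagonal, the 307 male only genes spread along the horizontal axis, the 388 female only genes along the vertical axis, and the 11 opposite genes sit in the upper left and lower right. ZaCKX3 lies at -0.50 in males and -4.96 in females.

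The 1153 interaction genes were sorted by the call in each sex. A change in females only was the largest class with a call in a sex, with 388 genes (33.7%), of which 252 were lower and 136 higher at F3. A change in males only held 307 genes (26.6%), 176 lower and 131 higher at M3. A shared change of unequal size held 76 genes (6.59%): 20 rose more and 28 fell more in males, and 18 rose more and 10 fell more in females. A change called in opposite directions was found for 11 genes (0.954%), 6 higher in males and lower in females and 5 the reverse. The remaining 371 genes (32.2%) had a called interaction with no call in either sex. All 371 had changes of opposite sign, which an interaction past 1 with both changes short of 1 largely requires, and in 128 of them both changes passed an adjusted p of 0.05. The class of female only, lower genes depended on 1 library: it held 409 genes without F3 replicate 3.

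**Figure D2:**
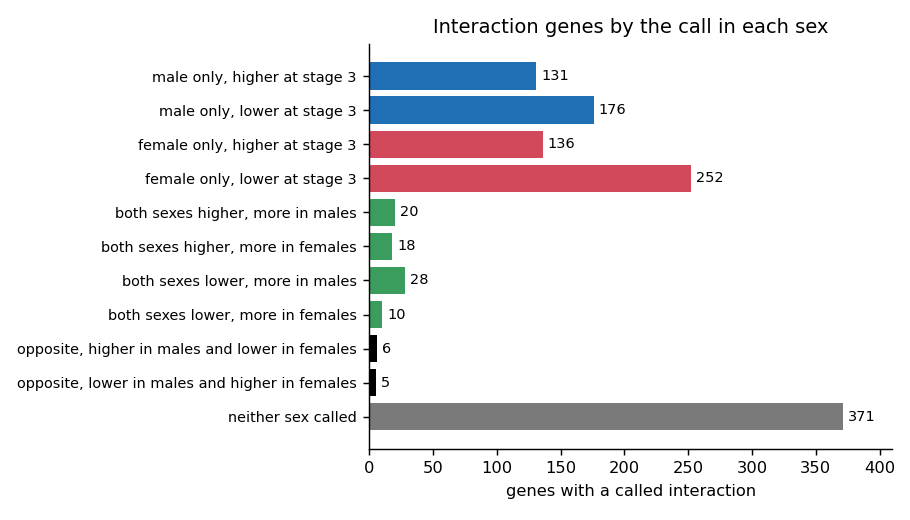
Number of genes with a called interaction (x axis) in each class (y axis), by the limma calls within males and within females. Female only, lower at stage 3 (252 genes) is the largest class with a call in a sex, and 371 genes were called in neither sex alone.

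A class of 1 sex means a call in that sex, and does not by itself show that the other sex stood still. Among the male only genes, the 95% confidence interval of the female change lay inside -1 to 1 for 107 of 131 higher and 144 of 176 lower genes. Among the female only genes, the interval of the male change did so for 110 of 136 higher and 210 of 252 lower genes. Part of the male only class was hardly detected in females at all. In 60 of 307 male only genes (19.5%), all 6 F1 and F3 libraries were below 1 FPKM, against 4.98% of all genes tested, and 18 of these were listed at 0 in all 6. Among female only genes, all 6 M1 and M3 libraries were below 1 FPKM in 24 of 388 (6.19%), against 3.51% of all genes. Among the falling classes, 27 of 176 genes that fell only in males were below 1 FPKM in females, but 7 of 252 genes that fell only in females were below 1 FPKM in males. A gene below 1 FPKM in all 6 libraries of a sex cannot reach the fold threshold in that sex on this scale. If called in a sex, it can only enter the class of the other sex, so that these shares are partly set by the definition of the classes. The interaction genes as a whole resembled the tested genes in level. Their highest group mean had a median of 8.09 FPKM (quartiles 3.75 and 19.6), against 9.94 FPKM (3.15 and 26.6) for all, and 132 of 1153 (11.4%) were IDs that the study added to the reference gene set, against 9.74% of all tested genes.

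The interaction is also the sex difference at stage 3 less the sex difference at stage 1, so that the genes can be followed through the stages. The calls at stages 1 and 3 come from the same libraries as the interaction and are given as a description. Of the 622 positive genes, 293 (47.1%) differed between the sexes at stage 3 only, with males higher (2.24% of all genes tested), 58 (9.32%) differed at stage 1 only, with females higher (0.769% of all genes), and 260 (41.8%) passed the threshold at neither stage. Of the 531 negative genes, 160 (30.1%) differed at stage 3 only, with females higher (1.75% of all genes), 118 (22.2%) differed at stage 1 only, with males higher (1.14% of all genes), and 217 (40.9%) at neither. Counted at each stage alone, 2.58% of all genes were called higher in males and 1.35% higher in females at stage 1, and 3.66% and 2.35% at stage 3. A sex difference that turned over between the stages was called in 1 positive and 9 negative genes, the same counts as over all genes tested (0.00258% and 0.0232%). Such a turn puts the interaction past the fold threshold by definition, so that these counts are a description only. A difference called at stage 1 and no longer at stage 3 thus made up 22.2% of the negative and 9.32% of the positive genes.

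Stages 2 (primordia initiation) and 4 (development and maturation) were not part of the interaction contrast. Their libraries were in the same fit, however, and shared its variances and its filter, so that calls at these stages are not fully independent of it. At stage 4, 198 of the 622 positive genes (31.8%) were called higher in M4 than in F4, against 4.64% of all genes, and 16 (2.57%) were called higher in F4, against 3.47% of all. At stage 4, 106 of the 531 negative genes (20.0%) were called higher in F4, against 3.47% of all genes, but 52 (9.79%) were called higher in M4, against 4.64%. Stage 2 stood between. Positive genes were called higher in M2 in 60 cases (9.65%, against 3.72% of all genes). Negative genes were called higher in M2 in 101 cases (19.0%, against 3.72% of all genes) and higher in F2 in 31 (5.84%, against 1.1% of all genes). Both shares were above those of all genes. More of the negative genes were called higher in M2 than in F2, but so were more of all genes tested. The median sex difference, males against females on the log2 scale, went from -0.31 at stage 1 over 0.09 and 0.98 to 0.68 at stage 4 in the positive genes, and from 0.56 over 0.17 and -0.75 to -0.29 in the negative genes.

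**Figure D3:**
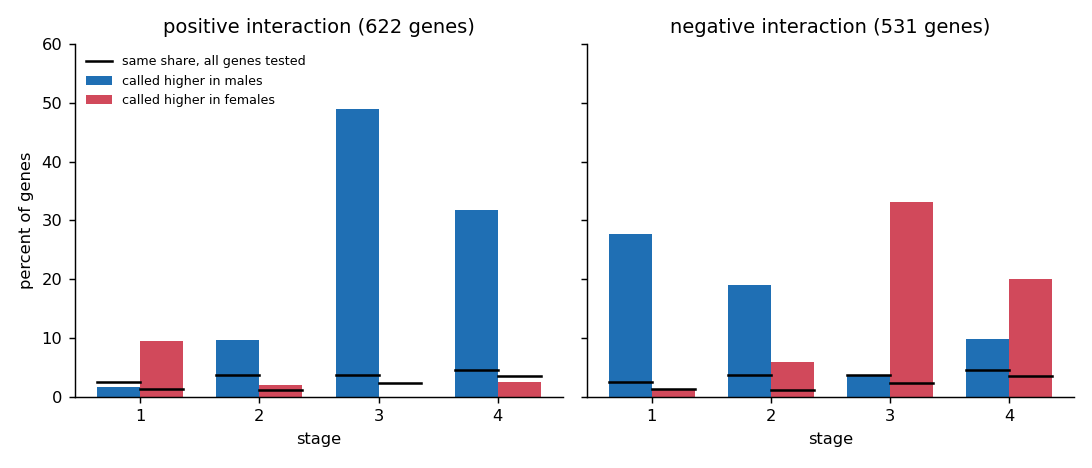
Percent of the 622 positive and the 531 negative interaction genes (y axis) called higher in males or in females by limma at each of the 4 stages (x axis); black lines give the same share over all 38734 genes tested. Stages 1 and 3 define the interaction. Stages 2 and 4 do not, though their libraries share the fit. At stage 4 the share higher in males is 31.8% of the positive genes and the share higher in females 20.0% of the negative genes.

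The gene IDs are not paired with names in the files, and 4 unnamed genes are given as examples of the classes. Zardc41017 had the largest positive interaction of the opposite class: it was at 11.4, 8.93 and 11.6 FPKM in M1 and at 80.9, 88.3 and 79.4 in M3, and at 21.8, 21.7 and 21.4 in F1 and 3.095, 3.56 and 2.52 in F3. The libraries of the stages did not overlap in either sex, and the interaction was 5.34 ± 0.151 (SE; limma, adjusted p = 1.3e-14). Zardc17002 showed the reverse, from a mean of 29.1 FPKM in M1 to 10.6 in M3 and from 9.70 in F1 to 42.7 in F3, with an interaction of -3.43 ± 0.184 (SE; limma, adjusted p = 4.4e-10), and was at 137.0 FPKM in F4 against 17.1 in M4. Zardc01206 was called in males only, where it rose from a mean of 2.47 to 19.3 FPKM. In females it was at 28.5 FPKM in F1 and 19.9 in F3, so that the sexes differed at stage 1 (log2 -3.09 in males against females; limma, adjusted p = 2.7e-12) while none was called at stage 3 (-0.04; adjusted p = 0.83). A gene with an added ID, the most negative of the female only class, was listed at 0 in all F1 libraries and at 10.1, 23.9 and 15.7 FPKM in F3, against 0, 0 and 0.522 FPKM in M1 and 0.297, 1.70 and 2.01 in M3, with an interaction of -3.13 ± 0.483 (SE; limma, adjusted p = 0.00021). This gene did not pass the limma test against an absolute log2 value of 1 (adjusted p = 0.101), whereas Zardc41017, Zardc17002 and Zardc01206 did.

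Named genes came from 9 lists with 130 genes of hormone, sugar, cell wall and floral identity functions, of which 124 were tested. The study chose these genes on the same samples, so that their counts are not independent evidence. Many were picked as higher in males than in females, stage 3 included, which favours a positive interaction in advance. The interaction was called in 20 of the 124, 17 positive and 3 negative, against 2.98% of all genes tested. The lists differed: 10 of the 20 belonged to the 2 cytokinin lists, which hold 18 tested genes, and 6 to the 36 tested MADS-box and AP2 genes.

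**Figure D4:**
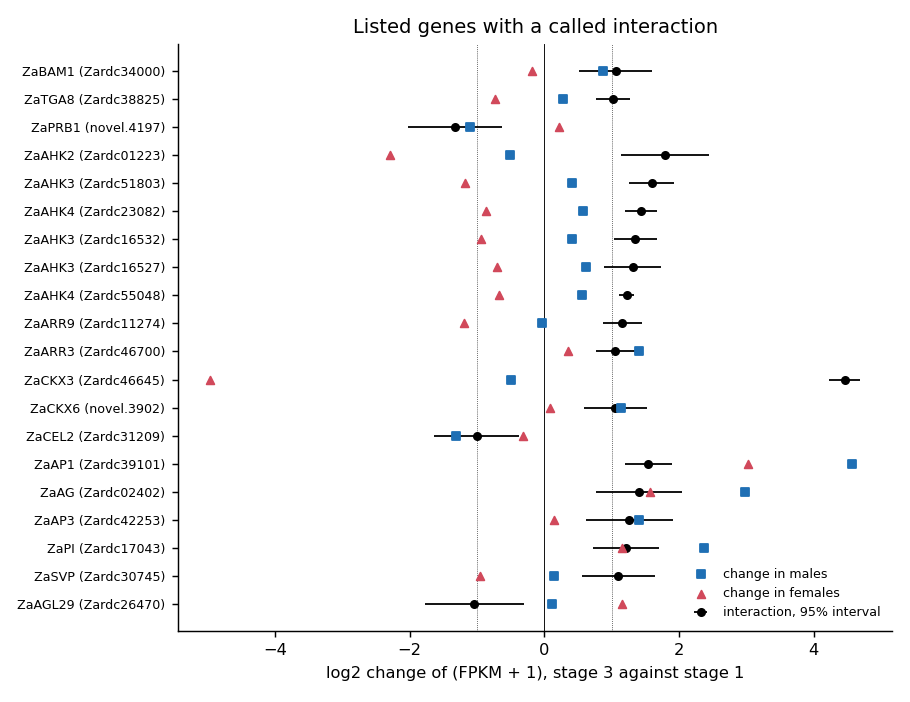
Interaction (black circle, with its 95% confidence interval) and the change in males (blue square) and females (red triangle) for the 20 listed genes with a called interaction, as log2 change of (FPKM + 1) from stage 1 to stage 3; dotted lines mark -1 and 1. ZaCKX3 stands apart at 4.46, the 6 AHK receptors lie between 1.22 and 1.79, and 3 genes (ZaPRB1, ZaCEL2 and ZaAGL29) are negative.

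Among the cytokinin oxidases, which break cytokinins down, ZaCKX3 parted most between the sexes. ZaCKX3 (Zardc46645) had the smallest adjusted p of all genes tested and the third largest interaction. At stage 1 it stood at 141.9, 130.7 and 136.0 FPKM in M1 and 128.7, 128.1 and 139.3 FPKM in F1. At stage 3 it was at 92.4, 97.6 and 98.5 FPKM in M3 and at 3.32, 3.41 and 3.09 in F3. Males and females overlapped at stage 1 and were far apart at stage 3. The mean fell 40.4-fold in females (132.0 ± 6.28 to 3.27 ± 0.165 FPKM, SD, n = 3; log2 -4.96, limma adjusted p = 1.3e-19), while the change in males was -0.50 (limma adjusted p = 2.7e-05) and not called. The interaction was 4.46 ± 0.108 (SE; limma, adjusted p = 1.4e-15), and it was the 1 listed gene that also passed the test against an absolute log2 value of 1, which the other 19 called list genes did not. The low level of females was already present at stage 2, with a mean of 1.54 FPKM in F2 against 57.5 in M2, and remained at stage 4, with 0.999 against 17.3. ZaCKX6 (an added ID) was a weak gene called in males only, where it rose. It was at 0.425, 0.911 and 1.06 FPKM in M1, 3.095, 3.18 and 2.54 in M3, 1.08, 0.952 and 1.35 in F1 and 1.32, 1.35 and 1.10 in F3, with an interaction of 1.06 ± 0.223 (SE; limma, adjusted p = 0.0029). That call was lost without M1 replicate 1 (0.90) and without F1 replicate 3 (0.98). ZaCKX5 (Zardc24534), at 47.2 FPKM in M1, 93.0 in M3, 29.5 in F1 and 36.6 in F3, missed the fold threshold with 0.66 (limma adjusted p = 7.4e-05). At stage 4 ZaCKX5 was called lower in males, with 35.2 FPKM in M4 and 85.3 in F4 (log2 -1.25; limma adjusted p = 1.4e-11). The tested oxidases, 3 in number, thus all had a positive interaction, but ZaCKX3 through a fall in females and ZaCKX6 through a rise in males. The glucosyltransferases ZaUGT85A4 (Zardc19469, 0.23) and ZaUGT85A1 (Zardc45722, -0.14), members of a family that conjugates hormones with glucose, were not called (limma adjusted p = 0.52 and 0.78).

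No gene sequences were used here. The primers that the study designed for quantitative PCR mark amplicons of these genes and not what the FPKM measured. They are shown for the gene with the largest interaction of the lists and for 1 of the AHK3 copies, in lower case from 5′ to 3′ as listed with the study.
ZaCKX3 (Zardc46645) forward: tcagcctctagcgattacgg
ZaCKX3 (Zardc46645) reverse: tttcaactactactcctccttcagc
ZaAHK3 (Zardc16527) forward: acatttactgctgtcttcggca
ZaAHK3 (Zardc16527) reverse: ggctcgggtaggtctggtg

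The cytokinin receptors moved together. All 6 AHK genes had a called positive interaction (limma; percent called positive over all genes, 1.61), and in 5 of the 6 the male change was above 0 and the female change below 0. ZaAHK4 (Zardc55048), the most abundant receptor, was at 64.7, 63.7 and 63.1 FPKM in M1 and 96.5, 94.6 and 91.8 in M3, and at 69.8, 67.5 and 67.5 in F1 and 42.4, 41.1 and 44.4 in F3. The stages did not overlap in either sex. Neither change reached the fold threshold (0.56 in males, -0.67 in females), but the interaction did, 1.22 ± 0.0549 (SE; limma, adjusted p = 3.5e-11). The second ZaAHK4 gene (Zardc23082) behaved likewise at a lower level, from 14.8 to 22.4 FPKM in males and from 18.6 to 9.78 in females, with an interaction of 1.44 (limma adjusted p = 7.3e-08). The 3 ZaAHK3 genes had interactions of 1.59 (Zardc51803), 1.35 (Zardc16532) and 1.31 (Zardc16527). Of these, Zardc51803 was called lower in females, from 11.6, 11.1 and 13.6 FPKM in F1 to 4.26, 4.67 and 5.42 in F3, and was at 11.4, 10.1 and 13.6 in M1 and 14.9, 18.9 and 14.0 in M3. ZaAHK2 (Zardc01223) differed from the rest in that its male change was also below 0. It was at 34.0, 38.0 and 43.7 FPKM in M1, 26.7, 24.1 and 29.8 in M3, 43.3, 38.0 and 41.1 in F1 and 5.85, 4.95 and 14.2 in F3. The fall was called in females (-2.29; limma adjusted p = 6.8e-08) and not in males (-0.50; adjusted p = 0.077), and the interaction was 1.79 ± 0.312 (SE; limma, adjusted p = 0.00061). F3 replicate 3 stood above the other F3 libraries, and without it the interaction was 2.21. The calls of all 6 receptors held when any single library was left out. Whether reads were shared between the copies of AHK3 or of AHK4 could not be assessed from FPKM, so that the copies may not be separate measurements.

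The receptors also differed in their time course. At stage 2, a sex difference was called in 1 of the 6, Zardc51803, with 19.8 FPKM in M2 and 6.47 in F2 (log2 1.48; limma adjusted p = 5.5e-08). ZaAHK2 was at 34.4 FPKM in M2 and 35.5 in F2, with the low level first seen in F3 (mean 8.33 FPKM). At stage 4, whose libraries were outside the contrast though in the same fit, means were higher in M4 than in F4 in all 6. The difference was called for ZaAHK2 (33.0 against 11.1 FPKM), Zardc51803 (15.0 against 5.07) and Zardc16532 (19.8 against 7.60). Over all genes tested, 3.72% were called higher in males at stage 2 and 4.64% at stage 4.

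**Figure D5:**
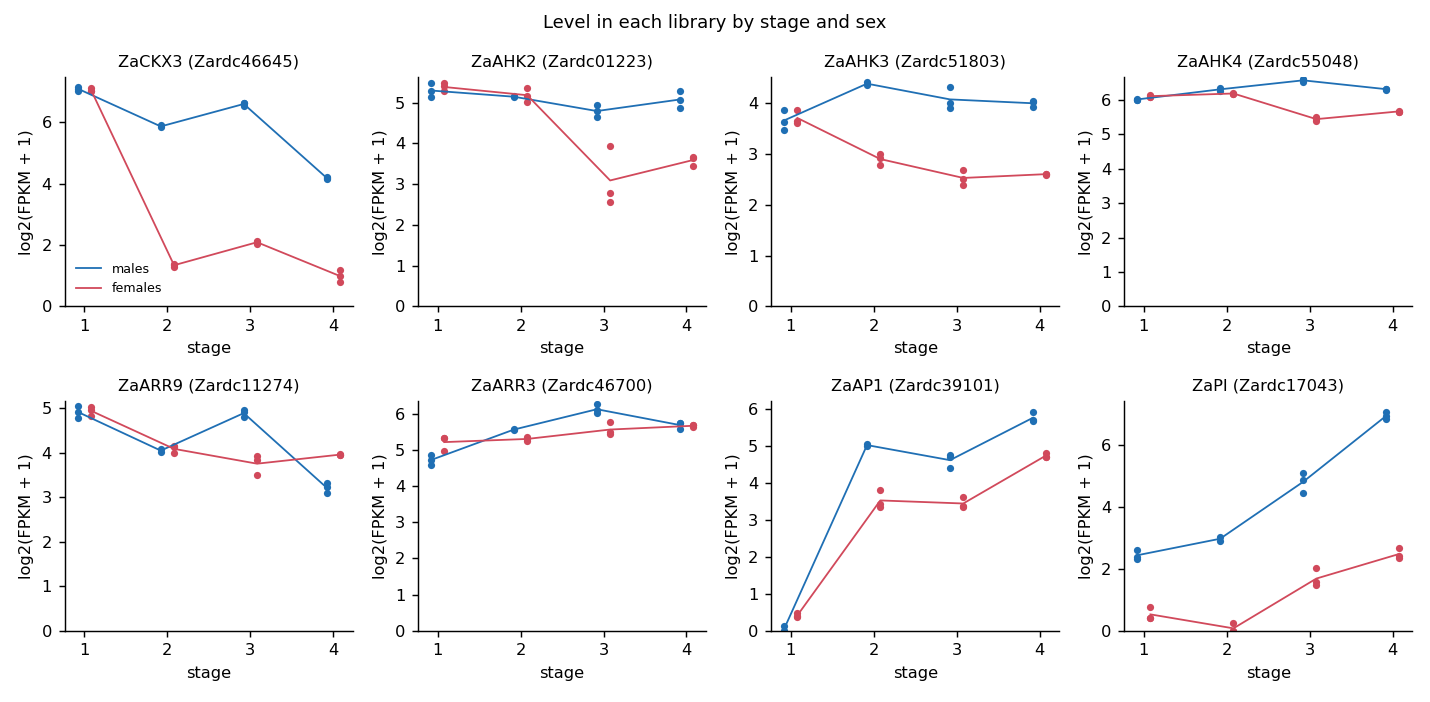
Level of 8 genes in each library on the log2(FPKM + 1) scale (y axis) by stage (x axis), males in blue and females in red; points are libraries (3 a group, 2 at M2) and lines join group means. ZaCKX3 separates from stage 2 on, ZaAHK2 from stage 3 on, and ZaAP1 rises in both sexes to a higher level in males.

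Below the receptors, the response regulators were less uniform, with 2 of 6 called (2.98% of all genes) and 5 of 6 above 0 (48.8% of all genes). ZaARR9 (Zardc11274), a type A regulator that damps the cytokinin signal, was at 26.4, 29.2 and 32.2 FPKM in M1, 26.8, 29.0 and 30.2 in M3, 27.4, 30.3 and 31.6 in F1 and 14.2, 13.3 and 10.3 in F3. Of these 4 groups only F3 stood apart, and the interaction was 1.16 ± 0.137 (SE; limma, adjusted p = 1.2e-05). At stage 2, however, means were below those of stage 1 in both sexes, with 15.53 FPKM in M2 and 15.99 in F2. No sex difference was called there (log2 -0.04; limma adjusted p = 0.85), and the male mean was back at 28.64 FPKM in M3. At stage 4 the order of stage 3 was turned, with 8.29 FPKM in M4 and 14.5 in F4 (log2 -0.74; limma adjusted p = 3.7e-06, short of the fold threshold). ZaARR3 (Zardc46700), also a type A regulator, was called in males only, since its change in females, though past an adjusted p of 0.05, was short of the fold threshold (0.35; limma adjusted p = 0.0071). It was at 28.0, 23.0 and 25.1 FPKM in M1 and 63.5, 67.4 and 75.1 in M3, against 39.2, 39.1 and 30.5 in F1 and 53.3, 43.9 and 42.0 in F3. Its interaction of 1.06 ± 0.138 (SE; limma, adjusted p = 3.8e-05) lay close to the fold threshold and was between 0.989 and 0.997 without M1 replicate 2, M3 replicate 3, F1 replicate 1, F1 replicate 2 or F3 replicate 3. ZaARR12 (Zardc54051), a type B regulator that activates target genes, missed the threshold with 0.96 (limma adjusted p = 0.0012) after a called rise in males from 1.11 to 5.32 FPKM. The second ZaARR9 gene (Zardc33161, 0.75) and ZaARR24 (Zardc14478, 0.62) were not called (limma adjusted p = 0.0012 and 0.31). The phosphotransfer gene ZaAHP4 (an added ID) was listed at 0 in all 12 libraries. Over the 13 tested signalling genes the median interaction was 1.16, against -0.0095 over all genes. No signalling gene was called negative in limma, with 10 positive and 0 negative genes at an unadjusted p below 0.05, against 15.0% positive and 14.7% negative over all genes. The study drew these genes largely from those up-regulated in males against females in the same samples, stage 3 included. That choice favours a positive interaction in advance, so that the tally and the median are descriptions only.

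Among floral identity genes, a larger rise in males was called for 1 of 3 A class genes, 2 of 11 B class genes and the C class gene (1.61% of all genes were called positive). The A class as a whole had 1 of its 3 genes above 0 and a median interaction of -0.05. ZaAP1 (Zardc39101), an A class gene of meristem and sepal identity, was almost silent at stage 1, with 0.101, 0 and 0 FPKM in M1 and 0.316, 0.395 and 0.292 in F1. At stage 3 it was at 20.1, 25.3 and 26.0 FPKM in M3 and 9.32, 9.19 and 11.4 in F3. It rose in both sexes, by 4.58 in males and 3.03 in females on the log2 scale, and the interaction was 1.54 ± 0.167 (SE; limma, adjusted p = 4.2e-06). ZaAG (Zardc02402), the C class gene of stamens and carpels, rose from 0.954, 1.36 and 0.464 FPKM in M1 to 14.7, 15.0 and 12.3 in M3, and from 0.499, 0.701 and 0.691 in F1 to 3.91, 4.18 and 3.50 in F3. Its interaction was 1.41 ± 0.307 (SE; limma, adjusted p = 0.0037). Its call was lost with a pseudocount of 0.1 (1.43; limma adjusted p = 0.16). At stage 4 no sex difference of ZaAG was called, with 53.8 FPKM in M4 and 58.0 in F4 (log2 -0.11; limma adjusted p = 0.72).

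The interaction was called in 2 of the 11 tested B class genes. All 11 lay above 0 (48.8% of all genes did), but 7 were listed at 0 in all M1 and F1 libraries, 4 were listed at 0 in all F1 and F3 libraries, and 1 reached 1 FPKM in 3 or more of the 12 libraries. ZaPI (Zardc17043) rose in both sexes, from 4.22, 4.01 and 5.09 FPKM in M1 to the M3 levels given above and from 0.706, 0.331 and 0.326 in F1 to those of F3. The sexes already differed at stage 1 (log2 1.91; limma adjusted p = 4.1e-08), and the interaction was 1.21 ± 0.234 (SE; limma, adjusted p = 0.0014). The interaction of ZaPI rested on the scale, since the ratio of mean FPKM was 6.20 in males and 4.99 in females. With a pseudocount of 0.5 in place of 1 it was 0.95, short of the fold threshold, and with 0.1 it was 0.46 (limma adjusted p = 0.56). The larger rise of ZaPI in males is therefore a larger gain in level more than a larger ratio. ZaAP3 (Zardc42253), the partner of PI, was listed at 0 in all M1 and F1 libraries and was at 1.31, 0.910 and 3.23 FPKM in M3 and at 0, 0.342 and 0 in F3, with an interaction of 1.27 ± 0.308 (SE; limma, adjusted p = 0.008) that lost its call without M3 replicate 3 (0.93). The other AP3 and PI copies were weaker still, with M3 means between 0.270 and 1.30 FPKM, and reads shared between such copies cannot be told apart.

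ZaSVP (Zardc30745), a repressor of flowering, was called in neither sex alone. It was at 12.6, 12.5 and 9.33 FPKM in F1 and 4.84, 6.73 and 4.88 in F3, against 4.94, 2.71 and 3.52 in M1 and 3.68, 4.16 and 4.64 in M3. The sex difference of stage 1 (log2 -1.42 in males against females; limma adjusted p = 6.8e-06) was no longer called at stage 3 (-0.32; adjusted p = 0.18). The interaction was 1.10 ± 0.26 (SE; limma, adjusted p = 0.0066), and 0.94 without M1 replicate 2. ZaAGL29 (Zardc26470), another MADS-box gene, was the 1 member called negative, with means of 5.69 FPKM in M1, 6.28 in M3, 3.72 in F1 and 9.36 in F3. Its interaction of -1.04 (limma adjusted p = 0.049) lost its call in 10 of the 12 fits with a library left out, with pseudocounts of 0.1 and 0.5 and without a filter on low values. Of the 36 tested floral genes, 15 were positive and 5 negative at an unadjusted limma p below 0.05, against 15.0% positive and 14.7% negative over all genes. ZaAGL30 (Zardc19020), with 0.793 FPKM in M1, 0.473 in M3, 0.793 in F1 and 1.75 in F3, fell short of the threshold with -0.93 (limma adjusted p = 0.038) and passed it with a pseudocount of 0.5 (-1.27; limma adjusted p = 0.040). ZaAGL19 (Zardc08871), a promoter of flowering, was at 47.6 FPKM in M1, 49.6 in M3, 40.1 in F1 and 74.2 in F3, and fell short with -0.80 (limma adjusted p = 0.00051). ZaSHP1 (Zardc10218), a D class gene, rose in males from 0.193 to 2.26 FPKM and stood at 0.701 in F1 and 1.55 in F3, short of the threshold with 0.86 (limma adjusted p = 0.0084). The 4 E class SEP genes were not called in the interaction, 3 of them having been called higher in both sexes. Over all genes tested, 2.77% were called higher in males and 3.04% in females. The median interaction over the 36 tested floral genes was 0.13, with 5 called positive and 1 negative.

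The remaining hormone lists held 2 calls in the interaction among 36 tested genes (2.98% of all genes were called), both in the list of salicylic acid, jasmonic acid and ethylene. All 4 abscisic acid PP2C phosphatases, which hold back abscisic acid signalling, were called higher at stage 3 in both sexes. Over all genes tested, 2.77% were called higher in males and 3.04% in females, and 536 genes in both. None of the 4 phosphatases was called in the interaction (limma; unadjusted p below 0.05 for 2 positive and 1 negative). The nearest to a call was ZaAHG1 (Zardc46850), which rose from 11.1 to 46.8 FPKM in males and from 30.0 to 61.9 in females, with 0.97 (limma adjusted p = 6.2e-05). In the auxin list 0 of 18 genes were called, with a median of 0.07 and 7 genes at an unadjusted limma p below 0.05 (29.7% of all genes). ZaGH3.1 (Zardc26158, 0.77), whose family joins auxin to amino acids, and the repressor ZaIAA14 (Zardc51967, -0.77) had the largest interactions there (limma adjusted p = 0.011 and 0.0052). In the list of salicylic acid, jasmonic acid and ethylene, 2 of 11 genes were called (2.98% of all genes), in opposite directions, around a median of -0.57. An unadjusted limma p below 0.05 was found for 7 (29.7% of all genes). ZaTGA8 (Zardc38825), a bZIP factor that Arabidopsis uses in setting floral organ number, was at 12.5 FPKM in M1 and 15.5 in M3 and at 11.8 in F1 and 6.69 in F3, with an interaction of 1.02 (limma adjusted p = 1.5e-05) that lay at the fold threshold and lost its call without M1 replicate 2, M3 replicate 2, F1 replicate 1 or F3 replicate 1 (0.98 to 0.99). ZaPRB1 (an added ID), a pathogenesis-related protein, was called in males only, where it fell. It was at 10.1, 9.63 and 9.60 FPKM in M1 and 2.73, 5.10 and 4.57 in M3, while all F1 and F3 libraries lay between 0.110 and 1.01 FPKM, so that its interaction of -1.32 (limma adjusted p = 0.01) came from a gene hardly detected in females. With a pseudocount of 0.1 that call was lost (-1.92; limma adjusted p = 0.15). A second ZaPRB1 gene (Zardc49467) was far more abundant and was called higher at stage 3 in both sexes. It rose from 412.7 to 1522.0 FPKM in males and from 348.6 to 1089.0 in females, and its interaction of 0.24 was not called (limma adjusted p = 0.1). The largest uncalled interactions of this list were those of ZaERF2 (Zardc26876, -0.97) and ZaNPR3 (Zardc39292, -0.86; limma adjusted p = 0.0051 and 0.088). ZaERF2 was at 8.70 FPKM in M1, 8.25 in M3, 4.25 in F1 and 8.59 in F3, and gained a call in 3 of the 12 fits with a library left out. ZaJAZ1 (Zardc06900), a repressor of jasmonate responses, fell in males from 147.7 to 61.7 FPKM and was at 126.4 FPKM in F1 and 83.2 in F3. Its interaction of -0.65 (limma adjusted p = 6.8e-06) was short of the threshold.

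Sugar and cell wall genes held 2 calls, both of weakly expressed genes (2.98% of all genes tested were called). ZaBAM1 (Zardc34000), a beta-amylase of starch breakdown, was at 1.13, 1.55 and 1.34 FPKM in M1 and 4.02, 2.25 and 3.80 in M3, and at 0.393, 0.450 and 0.202 in F1 and 0.0489, 0 and 0.565 in F3. Its interaction was 1.06 ± 0.26 (SE; limma, adjusted p = 0.0082), and between 0.944 and 0.997 without M1 replicate 1, M3 replicate 1, M3 replicate 3, F3 replicate 1 or F3 replicate 2. ZaCEL2 (Zardc31209), an endoglucanase that cuts cell wall glucans, fell in males from 3.83, 4.91 and 4.85 FPKM to 0.912, 1.23 and 1.56, and was at 2.68, 2.37 and 3.04 in F1 and 1.08, 1.70 and 3.71 in F3. Its interaction was -1.003 ± 0.301 (SE; limma, adjusted p = 0.027), and -0.67 without F3 replicate 3, the highest of the F3 libraries. The call was lost there and without M1 replicate 2, M1 replicate 3, M3 replicate 1 or F1 replicate 2 (-0.96 to -0.90), and in the fit of 4 groups (limma adjusted p = 0.087). ZaSUS2 (Zardc36683), a sucrose synthase, and ZaRS5 (Zardc23456), a raffinose synthase, lay just short of the fold threshold with 0.997 and -0.996 (limma adjusted p = 0.00074 and 9e-05). In ZaRS5 the male libraries went from between 9.45 and 9.88 FPKM to between 3.70 and 5.22, and the female libraries stayed between 5.32 and 7.10. ZaSIP1 (Zardc07320), an abundant member of the raffinose family list, fell in both sexes, from 310.6 to 82.6 FPKM in males and from 182.6 to 41.4 in females, and its interaction was 0.22 (limma adjusted p = 0.017). The lists of starch, sucrose and trehalose genes (20 tested, median 0.18), raffinose family genes (5 tested, -0.06) and cell wall hydrolases (9 tested, 0.10) had medians near the -0.0095 of all genes.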

How the data were processed

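FPKM values per gene and library were deposited by the authors in 1 table per library. Per the study's methods reads were aligned to the published genome of the species, whereas the submitters' processing notes name Bowtie 0.12.2, HTSeq and the mouse build mm8, which is not a genome of this plant; the true build is therefore not settled here, and no coordinates were used. FPKM are not counts and keep no read depth beyond the relative depth read from low values, so that no counting intervals are given. The table of 1 library (M2 replicate 3) holds 183 genes, 182 of them equal to M3 replicate 1, and was left out, leaving 23 of 24 libraries.

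Values were taken as log2(FPKM + 1), kept where at least 3 libraries had at least 1 FPKM, and fitted with limma 3.58.1 in R 4.3.3 with all 8 groups as means (residual degrees of freedom 15) and trended empirical Bayes variances. Adjusted p-values are Benjamini-Hochberg values over all 38734 genes. Groups came from the sample titles. The procedure was tested on simulated data. Alternatives were pseudocounts of 0.1 and 0.5, other filters, quantile and median-ratio scaling, a fit of 4 groups, other thresholds, a replicate block, and leaving out each library.

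Gene lists follow the names in the study's supplementary tables. Called list genes were named, with up to 4 uncalled genes of each list by the size of the interaction, 4 unnamed IDs by class and size, and the SEP, STK, SHP1, AG, AP3 and PI genes used to check labels. ZaAHP4 and the ZaPRB1 gene Zardc49467 were added after their values were seen. Members and lists were chosen with earlier results of these data known.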

Additional observations from a re-analysis of the deposited data

Results flagged for a closer look

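The following results are differences between the sexes in the change from stage 1 to stage 3, each by the limma interaction test itself (log2 values of the change in males less the change in females). The test was called in 1153 genes. Among cytokinin genes it was called for ZaCKX3 (4.46), ZaCKX6 (1.06), ZaAHK2 (1.79), the ZaAHK3 genes Zardc51803 (1.59), Zardc16532 (1.35) and Zardc16527 (1.31), the ZaAHK4 genes Zardc23082 (1.44) and Zardc55048 (1.22), ZaARR9 Zardc11274 (1.16) and ZaARR3 (1.06). Among floral genes it was called for ZaAP1 (1.54), ZaAG (1.41), ZaAP3 Zardc42253 (1.27), ZaPI Zardc17043 (1.21), ZaSVP (1.10) and ZaAGL29 (-1.04). In the other lists it was called for ZaBAM1 (1.06), ZaTGA8 (1.02), the ZaPRB1 gene with an added ID (-1.32) and ZaCEL2 (-1.003). Among unnamed IDs it was called for Zardc41017 (5.34), Zardc01206 (3.05), a gene with an added ID, the most negative of the female only class (-3.13), and Zardc17002 (-3.43). No group had more than 3 libraries, so that single libraries were not tested as outliers.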

How the results depend on the processing

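Of the 24 named genes with a called interaction, 16 kept the call in all 12 fits that left out a library, and none turned its direction in any setting. The count of interaction genes stayed within 1.5 times under all settings other than the fold threshold (1010 to 1627, lowest in the fit of 4 groups). A test against the fold threshold called 44 genes in the interaction, 716 in males, 625 in females, and 282, 424, 383 and 771 between the sexes at stages 1 to 4; its classes held 5 and 9 (male only, higher and lower), 12 and 5 (female only), 1, 1, 1 and 0 (shared), 1 and 0 (opposite) and 9 genes (neither). With no fold threshold the counts were 6422, 15614, 16468, and 12438, 8476, 15653 and 16988, and the classes 878, 971, 874, 1318, 388, 389, 507, 418, 307, 256 and 116. A pseudocount of 0.1 gave 4073 genes in males, 4370 in females and 2918, 3018, 4341 and 5345 between the sexes, 208 male only higher, 449 female only lower, 39, 43 and 22 shared (higher more in males, lower more in males, lower more in females) and 23 and 13 opposite genes; a pseudocount of 0.5 gave 2288 genes at stage 1, 17 shared lower more in females, and 10 and 11 opposite. Weak genes gain in ratio with a small pseudocount. Named calls lost with a pseudocount of 0.1 were ZaPI (0.46), ZaAG (1.43, limma adjusted p = 0.16), ZaAGL29 (-1.21) and ZaPRB1 (-1.92). With a pseudocount of 0.5, ZaPI (0.95) and ZaAGL29 (-1.13) lost theirs. ZaAGL29 also lost its call without a filter, ZaTGA8 with quantile normalization (0.99), and ZaCEL2 with median-ratio scaling and in the fit of 4 groups (limma adjusted p = 0.087).

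Leaving out libraries, female only lower genes ranged from 194 to 409 (highest without F3 replicate 3) and opposite genes lower in males from 3 to 6. Some uncalled changes crossed 0: in males ZaDIN10 (-0.0703 to 0.1933), ZaSVP (-0.0106 to 0.3289), ZaARR9 Zardc11274 (-0.0967 to 0.0415), Zardc01536 (-0.0667 to 0.264) and ZaERF2 (-0.2566 to 0.0208), in females ZaRS5 (-0.0756 to 0.1034), ZaPYL4 (-0.3494 to 0.2201), ZaARR24 (-0.0315 to 0.4157), ZaAP3 Zardc42253 (0 to 0.2123) and a ZaPI copy with an added ID (0 to 0.0919), and the interaction of ZaUGT85A1 (-0.2861 to 0.013). The cause of these shifts was not tested. The replicate numbers did not pair the libraries (correlation of same-numbered deviations from -0.168 to 0.0905 over 18 pairs); a fit with the replicate block called 1156 genes, 1130 of them shared with the fit without it.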
